A study of Mus musculus with 3 samples.

Results

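To ask which promoters were open in cells with kinase-inactive CDK6 and not in wildtype cells, 853 promoter regions with an ATAC-seq peak in both Cdk6_K43M cell lines and in neither Cdk6_WT line were examined. ATAC-seq marks chromatin that the Tn5 transposase can enter. The regions were chosen by the peak calls themselves. Overlapping peaks of the 4 deposited lists were merged, and a region was kept when it reached the promoter window of an annotated transcription start, which began 2000 bp before the start and ended 200 bp after it. Chromosomes 12, 13 and 18 and the sex chromosomes were left out. The 853 regions were 5.84% of the 14603 promoter regions on the chromosomes used. The same rule turned around gave 285 promoter regions with a peak in both Cdk6_WT lines only (1.95%), and 9640 promoter regions had peaks in every list and are called shared below. Merging gave 50965 regions genome-wide.

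The cells were pre/pro-B-cell lines grown from mouse bone marrow that had been transduced with a retrovirus carrying BCR-ABL(p185), the fusion kinase of acute lymphoblastic leukemia, which every line of both genotypes expressed. The bone marrow came from mice homozygous for wildtype Cdk6 (Cdk6+/+) or for Cdk6 K43M (Cdk6 KM/KM), whose CDK6 protein has no kinase activity. There were 2 cell lines per genotype with 1 library each, and each line is one culture. The ages of the mice were not given in the sources used here. One Cdk6_WT library had been submitted earlier and was re-analyzed for the study, so genotype and separate preparation cannot be told apart in that library. Promoter peaks at B-lineage marker genes were present in all 4 libraries, at 10 of 12 genes in both wildtype lines and at 10 and 8 in the K43M lines. They were present at 1 or 2 of 7 T-lineage genes, 1 of 7 myeloid genes, at most 1 of 5 erythroid genes and at most 1 of 3 megakaryocyte genes in each. None of these marker genes had a K43M-only promoter region.

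A promoter holds the transcription start of a gene, and an open promoter can bind transcription factors and the RNA polymerase machinery. Promoters in mammals fall broadly into CpG islands, which are rich in CpG dinucleotides and are typical of housekeeping and developmental genes, and CpG-poor promoters, which are typical of tissue-restricted genes. CDK6 is a cyclin-dependent kinase of the early cell cycle that also takes part in transcription with and without its kinase activity. An open promoter does not by itself show that its gene is transcribed.

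The K43M-only regions with the best peaks differed in their number of CpG dinucleotides, as the DNA at or near their summits shows. The summit is the position of highest read coverage in the peak. Each run below has 160 bases of the mouse mm10 assembly, lies outside annotated exons, and reads along the strand of the gene. Capitals mark matches to SP1, CRE, NFY or E-box motifs on either strand. The first 4 were chosen to show start sites with 12 to 20 CpG dinucleotides and the SP1 motif, which is bound by the SP and KLF factors.
Pgbd5, chr8:124434523-124434682 (minus strand): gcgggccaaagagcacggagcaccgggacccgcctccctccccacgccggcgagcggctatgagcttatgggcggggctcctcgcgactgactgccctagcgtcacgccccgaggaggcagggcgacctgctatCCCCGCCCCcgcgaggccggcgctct
Gk5, chr9:96119185-96119344 (plus strand): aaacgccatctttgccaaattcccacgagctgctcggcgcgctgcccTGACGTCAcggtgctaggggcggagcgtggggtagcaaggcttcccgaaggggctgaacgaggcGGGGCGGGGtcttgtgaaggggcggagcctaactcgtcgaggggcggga
Fzd9, chr5:135251231-135251390 (minus strand): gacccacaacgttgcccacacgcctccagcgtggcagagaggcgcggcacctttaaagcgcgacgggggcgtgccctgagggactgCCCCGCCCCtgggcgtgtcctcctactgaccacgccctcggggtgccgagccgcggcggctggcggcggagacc
Rgs16, chr1:153740189-153740348 (plus strand): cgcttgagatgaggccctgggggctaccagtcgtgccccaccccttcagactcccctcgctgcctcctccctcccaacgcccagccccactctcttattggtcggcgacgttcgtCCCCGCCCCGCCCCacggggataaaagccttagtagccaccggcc

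The Vgf run was chosen because it holds matches to all 4 of these motifs, with 2 NFY matches that overlap. The Foxp1 run has an NFY and an E-box match and 23 CpG dinucleotides, and it belongs to one start of a gene that has another promoter with wildtype peaks. The last 2 show the other kind of promoter. The Gm32914 run has 5 CpG dinucleotides and 1 NFY match, and the Acss1 run has 1 CpG dinucleotide and none of the motifs searched. The center of the Acss1 run lies at −91 bp from the summit, so that run does not contain the summit.
Vgf, chr5:137030100-137030259 (plus strand): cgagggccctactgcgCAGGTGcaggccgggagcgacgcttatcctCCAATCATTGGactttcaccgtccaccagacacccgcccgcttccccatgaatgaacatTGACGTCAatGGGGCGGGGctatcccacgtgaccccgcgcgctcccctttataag
Foxp1, chr6:99028314-99028473 (minus strand): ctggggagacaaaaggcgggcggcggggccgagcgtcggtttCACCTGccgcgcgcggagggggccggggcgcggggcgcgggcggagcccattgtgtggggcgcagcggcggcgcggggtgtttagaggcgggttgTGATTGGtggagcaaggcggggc
Gm32914, chr6:146001888-146002047 (minus strand): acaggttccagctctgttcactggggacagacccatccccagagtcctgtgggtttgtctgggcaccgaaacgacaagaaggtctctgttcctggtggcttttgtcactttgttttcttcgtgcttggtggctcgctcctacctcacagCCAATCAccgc
Acss1, chr2:150637687-150637846 (minus strand): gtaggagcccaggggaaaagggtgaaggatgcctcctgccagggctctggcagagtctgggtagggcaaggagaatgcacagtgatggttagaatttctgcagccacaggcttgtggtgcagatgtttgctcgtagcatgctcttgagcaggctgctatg

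Each deposited peak has a fold enrichment of reads at its summit over the local background. The number of reads behind it, the summit pileup, was recovered from the fold enrichment and its −log10 p value. Regions were ranked by the lower of their 2 percentiles of −log10 q in the K43M lists, so that a high rank needed a good peak in both lines. These are the values that chose the regions, and they are given as a description.

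The highest-ranked region covered the start of Pgbd5, a gene derived from a piggyBac transposase (ENSMUSG00000050751, chr8:124434130-124434917). Its fold enrichment was 16.54 in K43M line 1, from a pileup of 86 reads, and 14.94 in line 2, from 71 reads. The nearest wildtype peak lay 18072 bp away, so neither wildtype line had a peak near this start. Next came Gk5, a glycerol kinase gene (chr9:96119064-96119745), at 12.03-fold and 14.48-fold from 76 and 63 reads. It was followed by Cdkn2a, whose products INK4A and ARF restrain the cell cycle and stabilize p53 (chr4:89294402-89295610), at 9.891-fold and 10.03-fold from 90 and 68 reads. Cdkn2a differed from Pgbd5 and Gk5 in that both wildtype lists had another peak in one of its promoter windows, the nearest 781 bp from the region. Then came Man1c1, a Golgi mannosidase that trims N-glycans, at 12.6-fold and 12.45-fold from 62 and 58 reads.

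The next 6 regions lay at Gm32914, Nespas, Fzd9, Cdk5r2, Hey2 and Rabl2. Nespas is an antisense RNA of the imprinted Gnas locus, and its region also reached windows of Gnas. Its summit pileup was 71 reads in K43M line 1 and 57 reads in line 2. Fzd9, a frizzled receptor for WNT ligands, had 61 and 49 reads (11.88-fold and 10.16-fold). Cdk5r2, an activator of the neuronal kinase CDK5, had 45 and 51 reads (12.85-fold and 14.86-fold). Nespas, Fzd9 and Cdk5r2 had no promoter peak in either wildtype list. Hey2, a transcriptional repressor downstream of NOTCH, had 43 and 48 reads (13.25-fold and 14.67-fold), and the nearest wildtype peak was 31338 bp away.

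The other 10 of the best 20 were Npm2, a histone chaperone of the oocyte, Vgf, a neuropeptide precursor, Magi1, a scaffold of cell junctions, Rgs16, which speeds GTP hydrolysis by G-protein alpha subunits, Acss1, a mitochondrial acetyl-CoA synthetase, Neto2, an accessory subunit of kainate receptors, Napb, a SNAP protein of vesicle fusion, Fgf18, a fibroblast growth factor, Rbm11, an RNA-binding protein, and Foxp1, a transcription factor needed in early B-cell development. Vgf had 71 and 54 reads, Rgs16 40 and 42, and Acss1 36 and 48. Both lines were thus well above the lowest pileup of any peak, which was 6 or 7 reads in each list. Foxp1 had 51 and 42 reads at one start and 28 and 21 reads at a second K43M-only start, while both wildtype lists had a peak at another of its promoters.

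Most K43M-only regions were weaker than these. The median summit pileup was 17 reads in line 1 and 16 reads in line 2, against 53 and 43 reads at shared regions. The median fold enrichment was 5.755 and 5.59, against 9.763 and 9.248. In 133 of 853 regions both K43M peaks were in the upper 50% of their lists, in 21 both were in the upper 25%, and in 179 both were in the lowest 25%. The summits of both lines lay within 100 bp of each other in 662 regions, with a median of 42 bp. Fold enrichment was higher in line 1 in 477 of 853 regions, and Spearman's rho between the lines was 0.644 over the 853 regions, which share the 2 libraries. Cadm2, a synaptic cell adhesion gene that was named after its values were seen, had 89 reads in line 1 and 33 in line 2.

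**Figure D1:**
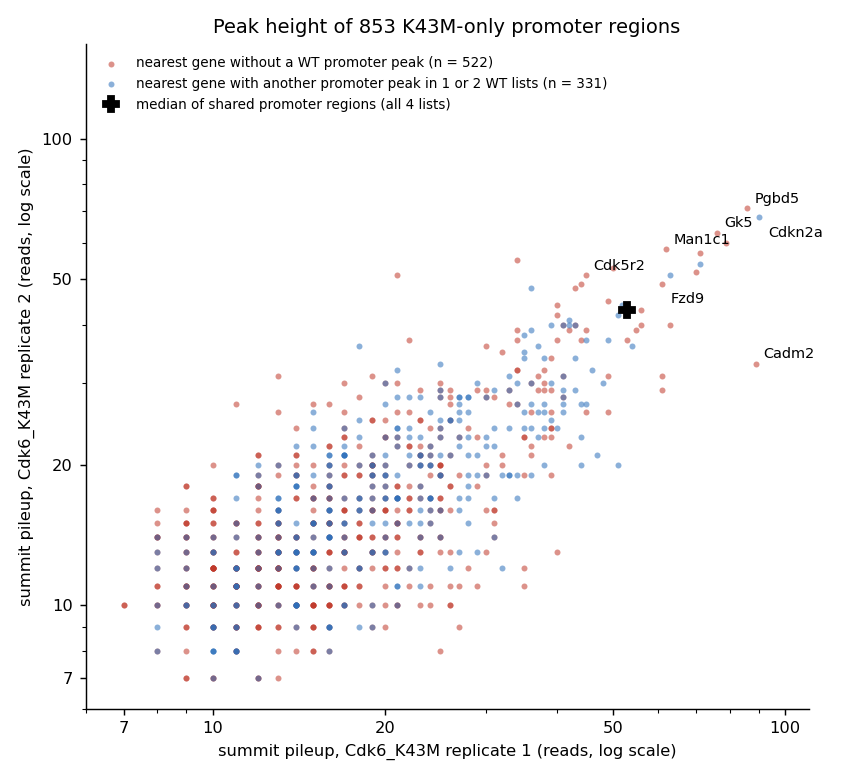
Summit pileup in reads of each of the 853 regions in K43M replicate 1 (horizontal, log scale) and replicate 2 (vertical, log scale), one point per region. Red points are 522 regions whose nearest gene had no wildtype promoter peak, blue points the other 331, and the black cross is the median of shared promoter regions (53 and 43 reads); most points lie below and left of the cross.

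The absence of a wildtype peak is the absence of a call, since the peak lists give no read count where nothing was called. At the weak end of the rule, Amz1 had 23 reads in line 1 and 12 in line 2, Slc8a2 had 7 and 10, and Rgma had 7 and 10. Just outside it were Gm13607, Tmem252 and Ankrd13c, each with peaks in both K43M lists and 1 weak peak in Cdk6_WT line 2, of 6, 6 and 7 reads. In all, 681 promoter regions had both K43M peaks and a peak in 1 wildtype list, 312 in the re-analyzed library and 369 in the other. Wildtype peaks lay within 500 bp of 67 K43M-only regions and within 1000 bp of 110, whereas 436 were over 10000 bp from every wildtype peak. The genome-wide background recovered from the lists, which scales with sequencing depth, was 65.3 and 56.7 reads per 10 kb in wildtype and 55.1 and 48.4 in K43M. The number of peaks was 33038 and 34248 in wildtype and 39038 and 34752 in K43M. When every list was limited to its best 33038 peaks, 669 regions met the rule. Wildtype-only regions were not counted at that list length.

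The regions reached promoter windows of 912 genes. Of 18813 protein-coding genes with a window on these chromosomes, 680 had a K43M-only region (3.61%). The share was 1.61% for long noncoding RNA genes (129 of 7996), 0.702% for small RNA genes (35 of 4988) and 0.377% for pseudogenes (37 of 9802). Counted by the gene of the nearest start, 666 regions belonged to a protein-coding gene, 98 to a long noncoding RNA and 26 to a small RNA. Another 35 belonged to a pseudogene, 25 to a transcript still awaiting experimental support, and 3 to an immunoglobulin segment, namely Igkv3-12, Igkv3-7 and Igkc of the kappa light chain locus (named after their values were seen).

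Protein-coding genes made up more of the K43M-only regions than of the wildtype-only ones. A protein-coding promoter was reached by 81.48% of K43M-only regions (695 of 853, 95% Wilson interval 78.73 to 83.94) and by 69.82% of wildtype-only regions (199 of 285). The difference was 11.7 percentage points (95% Newcombe interval 5.92 to 17.7). At shared regions the share was 91.96%, so that K43M-only regions differed by −10.5 points (−13.3 to −7.96). In all, 20 K43M-only regions (2.345%) reached promoters of at least 2 protein-coding genes, against 13.1% of shared regions. These intervals treat regions as independent and cover counting error only, since all regions come from the same 4 libraries.

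The genes fell into those with no promoter peak in a wildtype list and those with one. Of the 912 genes, 569 (62.39%) had no promoter peak in either wildtype list, 54 had one in 1 list and 289 had one in both. Of the 680 protein-coding genes, 372 had no wildtype promoter peak (1.98% of all protein-coding genes, and 4.23% of the 8804 without a wildtype promoter peak) and 267 had one in both lists. Genes of the second kind had the K43M-only region in addition to promoter regions seen in wildtype, as at Cdkn2a, Foxp1, Vgf and Acss1. At 15 genes a K43M-only and a wildtype-only promoter region occurred together. The share of all protein-coding genes with a promoter peak in both lines was 49.8% for wildtype and 52.3% for K43M.

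The K43M-only regions at both kinds of gene differed in their DNA. A region was called CpG-rich when the 500 bp on either side of its summit had over 50% GC and a CpG count over 0.6 of that expected from the base composition. Of the 512 regions whose genes all lacked a wildtype promoter peak, 44.14% were CpG-rich (95% Wilson interval 39.9 to 48.47) and 66.21% covered an annotated start. Of the 292 regions at a gene that both wildtype lines had open elsewhere, 19.18% were CpG-rich (15.07 to 24.08) and 43.49% covered a start (37.93 to 49.23). The intervals of these groups did not overlap for either measure. However, the groups were split by wildtype peak calls, which also chose the regions. By the rule, a region at a gene open elsewhere in wildtype cannot overlap the wildtype peaks there, which limits where it can lie. The part of this split in both differences was not tested.

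K43M-only promoters were also more often CpG-rich than wildtype-only promoters. The share was 35.87% (306 of 853, 32.72 to 39.15) against 10.18% (29 of 285, 7.179 to 14.23), a difference of 25.7 points (20.6 to 30.1). It was 67.4% at shared regions, and K43M-only minus shared was −31.5 points (−34.8 to −28.1). Since the classes also differed in position, regions that covered a start were compared alone. Among those, 50.4% of 496 K43M-only, 19.33% of 119 wildtype-only and 74.25% of 8579 shared regions were CpG-rich. The K43M-only minus wildtype-only difference there was 31.1 points (21.9 to 38.6). It was 12.1 points (6.78 to 16.6) among regions that covered no start, and 27.3 points (20.6 to 32.9) where the nearest start belonged to a protein-coding gene. The median summit pileup of wildtype-only regions was 20 reads in the re-analyzed line and 18 in line 2, against 17 and 16 for K43M-only regions. The backgrounds of these libraries differed, and other measures of strength had the reverse order. Median fold enrichment was 5.203 and 5.093 in wildtype-only regions, against 5.755 and 5.59 in K43M-only regions. Median percentiles of −log10 q were 28.66 and 29.42, against 36.73 and 31.11. The part of peak strength in the CpG difference was not tested. In the 133 regions with both K43M peaks in the upper 50% of their lists, 46.62% were CpG-rich. The share of wildtype-only regions at the same limit was not examined.

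**Figure D2:**
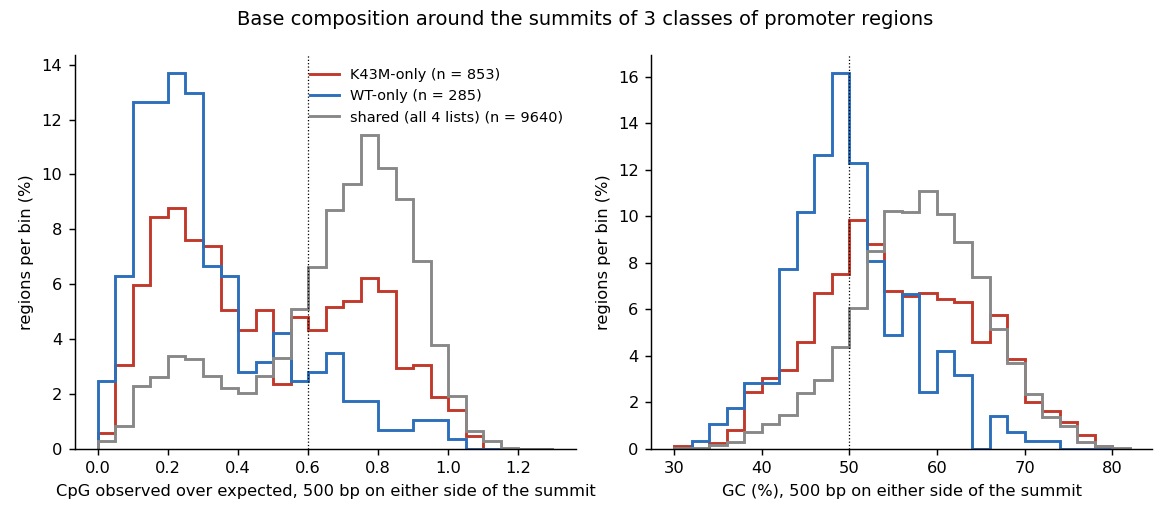
Share of regions (vertical, %) by CpG observed over expected (left) and by GC content in % (right), in the 500 bp on either side of the summit, for 853 K43M-only, 285 wildtype-only and 9640 shared promoter regions (gray). Dotted lines are the limits 0.6 and 50%; K43M-only regions have a low-CpG and a high-CpG group, with medians of 0.4396 against 0.2615 for wildtype-only and 0.721 for shared regions.

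Summits of K43M-only regions lay closer to starts than those of wildtype-only regions. The median distance was 158 bp, against 415 bp for wildtype-only regions and 53 bp for shared regions. The region covered an annotated start in 58.15% of K43M-only and 41.75% of wildtype-only regions, a difference of 16.4 points (9.7 to 22.9). Summits over 1000 bp from every start made up 17.58% and 30.88%, a difference of −13.3 points (−19.4 to −7.54). K43M-only regions were narrow, with a median width of 437 bp, against 388 bp for wildtype-only and 967 bp for shared regions. Over 50% of the bases within 100 bp of the summit were repeat-masked in 1.993% of K43M-only and 5.614% of wildtype-only regions.

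**Figure D3:**
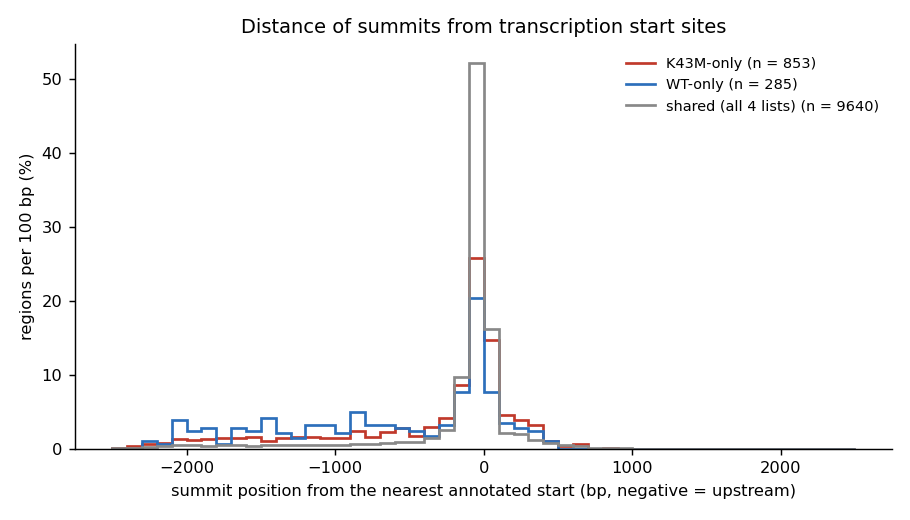
Share of regions (vertical, % per 100 bp) by the position of the summit from the nearest annotated start (horizontal, bp, negative is upstream) for the same 3 classes. K43M-only regions peak at the start, with 40.68% of summits within 100 bp of it, between wildtype-only regions (28.42%) and shared regions (68.44%).

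Of 11 motifs searched near the summits, SP1, the E-box and RUNX differed from both other classes over all regions, with intervals that left out 0. Within 100 bp of the summit on either strand, the SP1 motif (GGGGCGGGG) was present in 119 of 853 K43M-only regions (13.95%), as in the Pgbd5, Gk5, Fzd9 and Rgs16 sequences above. It was present in 3.509% of wildtype-only regions, 10.4 points lower (6.88 to 13.4), and in 19.1% of shared regions, from which K43M-only regions differed by −5.15 points (−7.45 to −2.54). Among CpG-rich regions alone it was present in 27.78% of 306 K43M-only and 17.24% of 29 wildtype-only regions, where the interval of the difference (−7.4 to 21.5 points) included 0. A window of the same length 1000 bp away held it in 1.055% of K43M-only regions. The E-box of B-cell E proteins (CAGCTG or CAGGTG) showed the reverse order, at 27.67% of K43M-only and 41.05% of wildtype-only regions, −13.4 points (−19.9 to −7.03), and 22.21% of shared regions. That K43M-only share was close to the 27.2% found 1000 bp away, where wildtype-only regions had 23.86% and shared regions 23.13%. K43M-only minus shared was 5.46 points (2.44 to 8.66) at the summit and 4.07 points (1.06 to 7.26) 1000 bp away. At that distance the interval of K43M-only minus wildtype-only (−2.67 to 8.86 points) included 0. The RUNX motif (TGTGGTT) was present in 6.213% of K43M-only and 9.825% of wildtype-only regions, −3.61 points (−7.87 to −0.151), and in 3.579% of shared regions. The window 1000 bp away held it in 3.869% of K43M-only and 5.614% of wildtype-only regions. Among CpG-rich regions alone it was present in 1.634% of K43M-only and 1.539% of shared regions. There the intervals of the differences from shared (−0.896 to 2.25 points) and wildtype-only regions (−10.1 to 3.77) included 0. The PU.1 motif (GAGGAAGT) was present in 3.4% and 7.018%, −3.62 points (−7.33 to −0.794), while the interval of its difference from shared regions (−1.55 to 1.04 points) included 0. A motif match is a stretch of letters and does not show that a factor was bound.

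The ETS, NFY and NRF-1 motifs, which are typical of constitutive promoters, were less frequent than at shared regions, but not distinguishable from wildtype-only regions. The ETS motif (CCGGAAGT) was present in 1.29% of K43M-only regions against 7.79% of shared regions, −6.5 points (−7.29 to −5.37). The NFY motif (CCAATCA or CCAATGA) was present in 6.331% against 14.12%, −7.79 points (−9.4 to −5.83). The NRF-1 motif was found in 1 K43M-only region (0.117%) against 2.261%. The intervals of K43M-only minus wildtype-only included 0 for each, at −0.768 to 1.98 points for ETS, −4.13 to 2.65 for NFY and −1.85 to 0.382 for NRF-1. The gaps to shared regions also held among CpG-rich regions alone. There the ETS motif was present in 7 of 306 K43M-only regions (2.288%) against 9.681% of 6497 shared regions, −7.39 points (−8.78 to −4.94). The NFY motif stood at 6.209% against 15.36% (−9.15 points, −11.5 to −5.76), and NRF-1 at 0 of 306 against 3.125%, where a count of 0 gives a Wilson upper limit of 1.24%. For the SP1 motif the CpG-rich shares of K43M-only and shared regions were 27.78% and 24.18%, and the interval of the difference (−1.24 to 8.97 points) included 0.

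The remaining motifs were likewise not distinguishable from wildtype-only regions. The AP-1 motif (TGACTCA or TGAGTCA) was present in 5.393% and 5.263% (difference 0.13 points, −3.37 to 2.81) and in 2.635% of shared regions. CTCF matches were present in 2.345% and 2.807%, the CRE motif (TGACGTCA) in 1.993% and 0.702%, and the GATA motif (AGATAAG) in 1.055% and 2.105%, and the interval of each of these 3 differences included 0. K43M-only minus shared was 2.76 points (1.39 to 4.51) for AP-1 and 1.32 points (0.467 to 2.58) for CTCF. Among CpG-rich regions alone those intervals included 0 (−0.656 to 2.72 and −0.387 to 1.83 points). Over all regions the intervals from shared regions included 0 for CRE (−1.93 to 0.122) and GATA (−0.259 to 1.23).

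**Figure D4:**
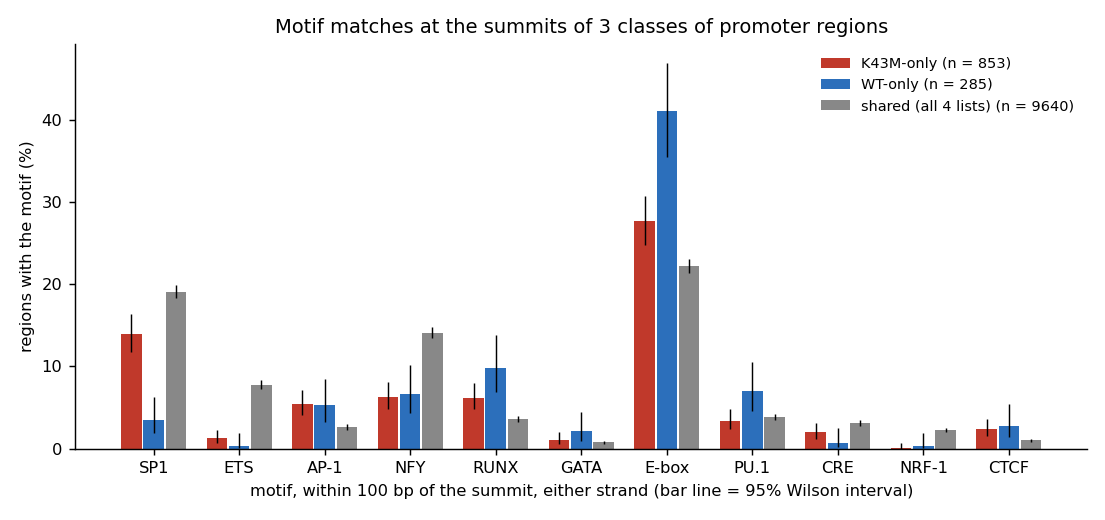
Share of regions (vertical, %) with each of 11 motifs within 100 bp of the summit on either strand, for the 3 classes, with 95% Wilson intervals as vertical lines. SP1 is at 13.95% in K43M-only and 3.509% in wildtype-only regions, the E-box at 27.67% and 41.05%, and ETS at 1.29% against 7.79% in shared regions.

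The functions of the genes were read from 49 lists of protein-coding genes, each set beside the 3.61% of all protein-coding genes that had a K43M-only region. The lists differ in how many of their genes were already open in wildtype, and a gene can be in several lists. Most of the 49 lists lay above 3.61%. This share includes 1417 olfactory, vomeronasal and taste receptor genes, of which 0 had a region. Shares are descriptions with 95% Wilson intervals, and no list was tested against the others.

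WNT signaling had the highest share. Of 78 genes of this pathway, which controls cell fate through beta-catenin and cell polarity, 10 had a K43M-only promoter region (12.8%, 7.12 to 22.0), and 9 of these had no wildtype promoter peak. Among its receptors were Fzd9, given above, and Fzd2, with 11 and 12 reads in K43M lines 1 and 2. The ligand Wnt10a had 33 and 29 reads, and the secreted activator Rspo1 had 32 and 35 reads (9.706-fold and 11.11-fold). Inhibitors of the pathway were in the group as well. Nkd1, which binds Dishevelled, had 53 and 37 reads (8.626-fold and 8.407-fold). Axin2, a scaffold for beta-catenin breakdown, had 27 and 28 reads, with a wildtype peak 125 bp away, and the secreted antagonist Sfrp2 had 8 and 12. The rest were genes of planar cell polarity, namely Celsr3 with 35 and 19 reads, Celsr2 with 16 and 17, and Prickle1, which had 2 regions, the stronger with 32 and 21. The range thus ran from strong peaks at Fzd9 to peaks near the calling limit at Sfrp2. Fzd9, Nkd1, Rspo1 and Celsr3 were picked by rank, and the other 6 were named so that the list is complete.

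Other signaling groups lay above the 3.61% of all genes as well, as did most lists of other functions. In the TGF-beta and BMP pathway 6 of 68 genes had a region (8.82%, 4.11 to 17.9), among them the receptor Bmpr1a with 49 and 31 reads and the ligands Bmp8a with 24 and 17 and Bmp7 with 14 and 10. All 3 genes lacked a wildtype promoter peak. Of 218 G-protein-coupled receptors 15 had a region (6.88%), and 13 of these had no wildtype promoter peak. The histamine receptor Hrh3 had 37 and 29 reads, the lysophosphatidic acid receptor Lpar1 25 and 20, the orphan receptor Gpr3 22 and 22, and the adenosine receptor Adora2b 25 and 17. Phosphatases and their regulators had 12 of 142 (8.45%, 4.9 to 14.2), and only 3 of these had no wildtype promoter peak.

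Lists of membrane genes lay above and below 3.61%. Of 84 potassium channel genes 9 had a region (10.7%, 5.74 to 19.1), and 6 of these had no wildtype promoter peak. The calcium-activated channel Kcnn1 had the strongest, with 36 reads in line 1 and 30 in line 2, with its summit at −1409 bp from the start. Kcnt2, a sodium-activated channel, had 18 and 15 reads, and Kcnh3, of the ether-a-go-go family, had 27 and 23. Calcium, sodium, chloride and TRP channels had 11 of 155 (7.1%, 4.01 to 12.3), led by the acid-sensing channel Asic3 with 19 and 19 reads. Cadherins and protocadherins had 4 of 45 (8.89%, 3.51 to 20.7) and solute carriers 18 of 328 (5.49%, 3.5 to 8.51). The strongest solute carrier was Slc2a13, a proton and myo-inositol transporter, with 34 and 55 reads. Synaptic adhesion and vesicle proteins had 7 of 151 (4.64%, 2.26 to 9.26), and glutamate, GABA, glycine and acetylcholine receptors had 2 of 63 (3.17%, 0.875 to 10.9). The potassium channel and cadherin genes were mostly closed in wildtype: 15.5% of the potassium channel genes and 17.8% of the cadherins had promoter peaks in both wildtype lines, against 49.8% of all protein-coding genes.

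Among metabolic genes, 4 of 37 genes of glycolysis and glucose uptake had a region (10.8%, 4.29 to 24.7), and all 4 were at or below the 20.28th percentile in one K43M list. Aldoc, an aldolase, had 15 and 17 reads, and no wildtype promoter peak. Pfkfb3, which makes the activator of phosphofructokinase, had 29 and 13 reads, and the glucose transporter Slc2a3 had 19 and 13, both at genes with wildtype promoter peaks. Of 73 genes for the electron transport chain and ATP synthase, 0 had a K43M-only region (upper limit 5.0%), and 68 of the 73 had promoter peaks in both wildtype lines. Cytosolic ribosomal proteins likewise had 0 of 73, with 71 open in both wildtype lists, and mitochondrial ribosomal proteins and import had 2 of 92. RNA-binding and splicing factors had 11 of 204 genes (5.39%), and 80.9% of the list was open in both wildtype lines. In that list 35 genes had no wildtype promoter peak. This number was 5 for the electron transport chain and ATP synthase and 2 for cytosolic ribosomal proteins. The part of openness in wildtype in these counts was not tested. Lipid metabolism had 5 genes with a region (2.7%, 1.16 to 6.17).

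The lists of blood lineages held 1 to 3 genes each, at shares from 3.45% to 8.33%. Of 36 B-lineage genes 3 had a region (8.33%, 2.87 to 21.8), namely Blk, a SRC-family kinase of B cells, with 25 and 23 reads, Ms4a1, which encodes CD20, with 14 and 14, and Ikzf1, which encodes IKAROS, with 31 and 14. Blk had promoter peaks in both wildtype lists and Ms4a1 and Ikzf1 in neither, with wildtype peaks 2713 bp from the Ikzf1 region and 215611 bp from the Ms4a1 region. Of 38 myeloid genes 2 had one (5.26%), Cebpd with 17 and 16 reads and Cebpb with 17 and 23, and both lacked a wildtype promoter peak. Of 41 T-cell and NK-cell genes 3 had one (7.32%), Gata3 with 21 and 22 reads, Tox with 13 and 11 at the better of its 2 regions, and Cd5 with 9 and 12. Runx1 was the single gene of 24 stem and progenitor genes (4.17%), with 35 and 35 reads at a region 479 bp from a wildtype peak. Gp1bb was the single one of 29 erythroid and megakaryocyte genes (3.45%), with 9 and 11 reads. The shares lay on either side of the 3.61% of all protein-coding genes, and each interval included it.

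In the cell cycle list, 3 of 45 genes had a region, Cdkn2a with 90 and 68 reads, Rb1 with 14 and 10 and Cdk14 with 9 and 10, and none of them lacked a wildtype promoter peak. INK4A, one product of Cdkn2a, inhibits the CDK4 and CDK6 kinases, and the Rb1 protein is a substrate of them. Which Cdkn2a product the region serves was not examined. The p53 pathway and BCL2 family had 0 of 41 (upper limit 8.57%). Nuclear receptors had 4 of 41 (9.76%, 3.86 to 22.5), led by Nr4a2 with 43 and 40 reads, an immediate-early gene. Basic helix-loop-helix factors had 4 of 79, among them Hey2 and Heyl of the NOTCH pathway, the latter with 51 and 20 reads. Chromatin regulators had 7 of 174 (4.02%), among them the Polycomb-associated factor Phf1 with 29 and 29 reads and the mitochondrial deacetylase Sirt3 with 63 and 51. At the low end were homeobox factors with 2 of 166 (1.2%, 0.331 to 4.29), zinc-finger genes named Zfp, Zscan or Zkscan with 6 of 355 (1.69%, 0.777 to 3.64) and olfactory, vomeronasal and taste receptors with 0 of 1417 (upper limit 0.27%). Histone genes had 0 of 24.

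Counted over genes without a wildtype promoter peak only, of which 4.23% had a K43M-only region, the highest share was 2 of 5 B-lineage genes (40.0%), a list with few genes left. It was 2 of 10 genes of glycolysis and glucose uptake. Next came 9 of 45 WNT genes, 4 of 26 small GTPases (15.4%), 5 of 35 RNA-binding and splicing factors (14.3%), 3 of 22 heat-shock proteins and chaperones (13.6%), 5 of 39 TGF-beta and BMP genes (12.8%), 3 of 24 axon guidance genes (12.5%) and 2 of 18 nuclear receptors (11.1%). Further down were 6 of 63 potassium channels (9.52%) and 13 of 166 G-protein-coupled receptors (7.83%). Zinc-finger genes stood at 6 of 94 (6.38%), and homeobox factors at 1 of 128 (0.781%). The 4.23% includes 1399 olfactory, vomeronasal and taste receptor genes, of which 0 had a region.

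**Figure D5:**
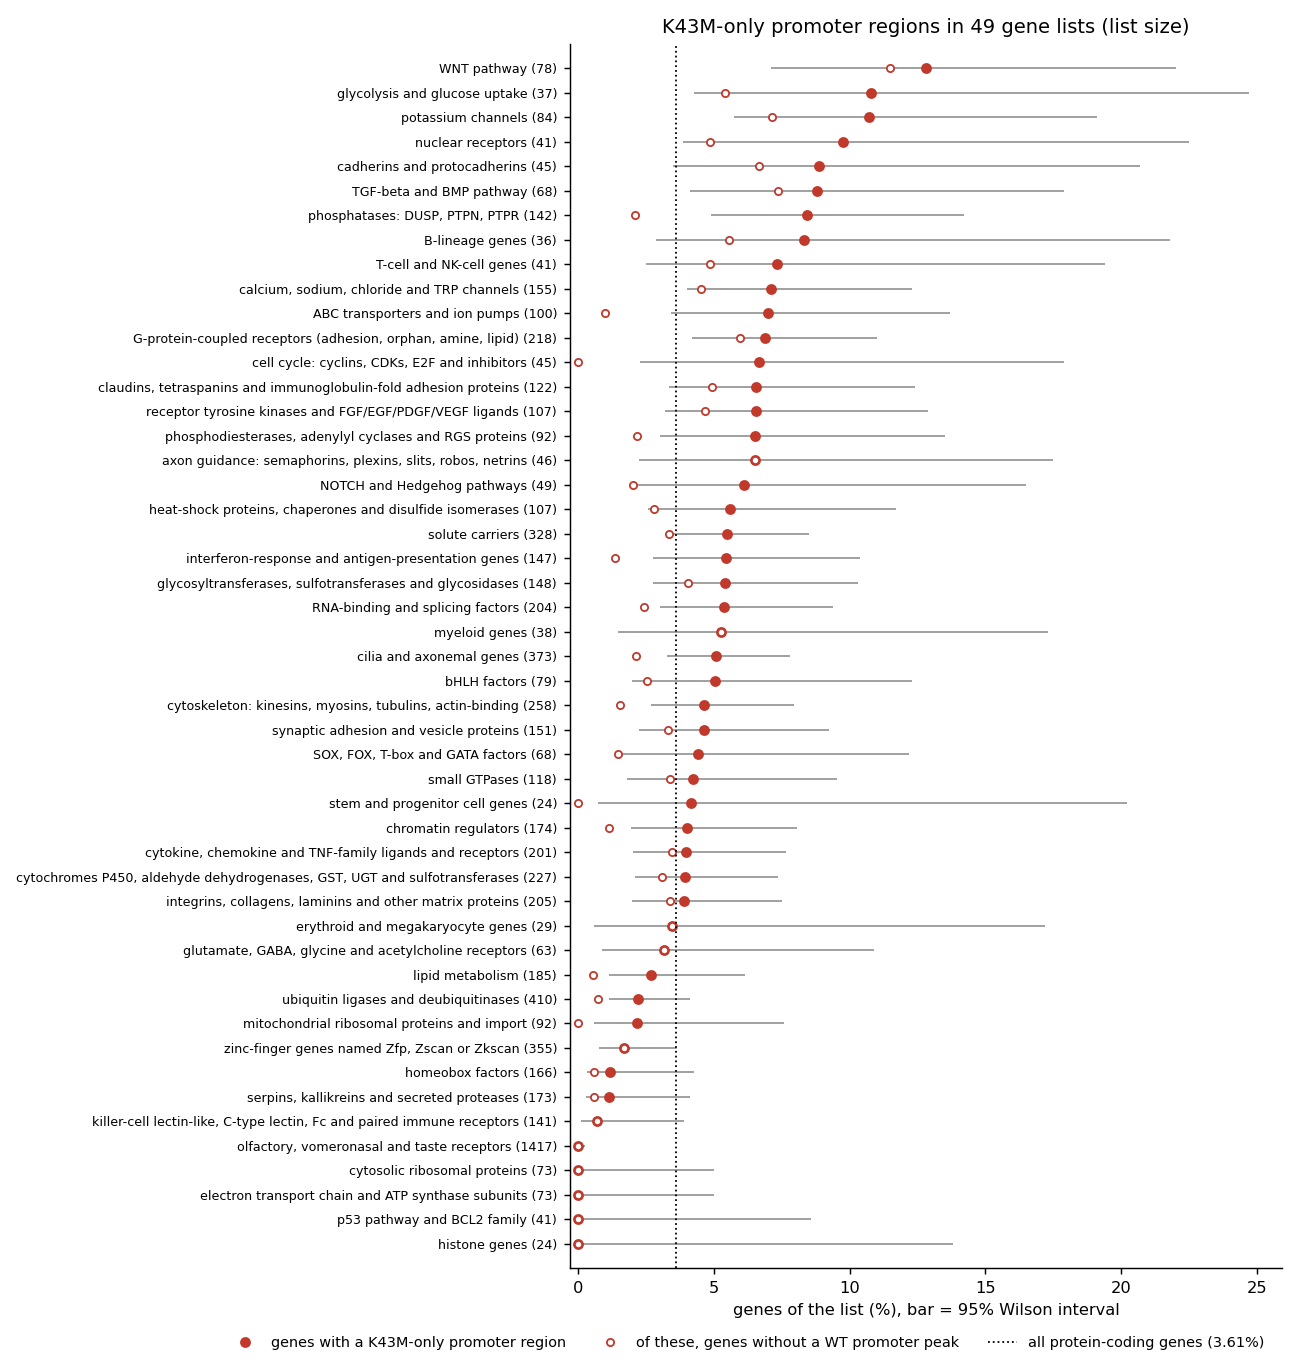
Share of genes (horizontal, %) with a K43M-only promoter region in each of 49 gene lists, with list sizes in parentheses and 95% Wilson intervals as bars; open circles count only genes without a wildtype promoter peak. The dotted line is 3.61% of all protein-coding genes; WNT genes (12.8%) are at the top, and 5 lists are at 0.

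The regions were spread over all 16 chromosomes used. Their number ranged from 7.12 per 100 shared promoter regions on chromosome 19 to 11.1 on chromosome 5. On chromosome 5 the local background of K43M line 1 was 0.35 higher on the log2 scale than its median over all chromosomes, and that of line 2 was 0.07 higher. The re-analyzed wildtype line was 0.19 higher there, and wildtype line 2 differed by −0.01. The part of this background in the number of regions there was not tested. Fzd9 and Vgf lie on this chromosome. There were 10 runs of at least 3 K43M-only regions with gaps of at most 100000 bp, holding 34 regions in all. One, at chr5:24351685-24453201, included the channel genes Kcnh2 and Asic3, one on chromosome 16 held 3 regions at the kinase gene Tnk2, and one on chromosome 8 held Pde4c, Mast3 and Kcnn1. Other runs joined genes with no common family, such as Ggn, Kcnk6, Ppp1r14a and Dpf1 on chromosome 7.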

How the data were processed

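ATAC-seq was run on 2 Cdk6_WT and 2 Cdk6_K43M lines. The authors trimmed reads (Trimmomatic 0.36), aligned them to mm10 (BWA 0.7.15), filtered them (SAMtools 1.3.1, bedtools) and called peaks per library with MACS2 2.1.0, centering on transposase cut sites. The deposited values are fold enrichment, a ratio of summit coverage to local background, and −log10 p and q values (q under 0.05). Read totals per library are not given in the sources used here.

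From these lists, peaks sharing at least 1 bp were merged, promoters were taken from GENCODE M21, and summit pileups were recovered from fold enrichment and −log10 p for 100% of peaks. Wilson and Newcombe intervals (Python 3.11.15, SciPy 1.17.1) describe shares, and no p-values were computed, since the regions were selected on the peak calls. The scripts were tested on simulated data. Named genes were the 20 best-ranked regions, up to 4 genes per list, the 3 regions on either side of the rule, and runs. The list without a sample record was taken as Cdk6_WT from the series design. One gene list and 1 named gene are not reported here. The regions and the gene lists were chosen with earlier results of these data known. Alternatives covered peak strength, list length, overlap, window, annotation, chromosomes and leaving out each library.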

Additional observations from a re-analysis of the deposited data

How the results depend on the processing

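No paired analysis was possible because the groups shared only 1 replicate number and no test was run. Of 61 alternative values, 35 stayed within the 95% interval of the reported share or within 1.5 times the reported count. The count of 853 became 133 when both K43M peaks had to be in the upper 50% of their lists. It ran from 1170 to 1765 with 1 library left out, and was 1429 without K43M line 1 and 1765 without line 2. The CpG-rich share of 35.87% was 46.62% for the upper 50%, 41.87% with windows of 500 bp on either side of starts, 44.84% with basic transcripts only, 29.78% with stricter limits (55% GC, 0.65) and 39.39% within 250 bp of the summit. It ran from 29.39% to 36.58% with 1 library left out. The protein-coding share was 84.21% for the upper 50% and 73.65% with basic transcripts, and 79.32% to 81.97% with 1 library left out. The share of genes without a wildtype promoter peak was 70.51% for the upper 50%, 71.19% with no wildtype peak within 1000 bp, 72.14% with 500 bp windows, 77.32% with basic transcripts, and 56.77% to 64.22% with 1 library left out. Within 250 bp of the summit instead of 100 bp, a longer stretch, motif shares were 19.58% for SP1, 9.379% for AP-1, 10.55% for NFY, 11.14% for RUNX, 3.517% for GATA, 53.22% for the E-box and 5.627% for PU.1. Peaks of few reads limit the weakest regions. Where no cause is built into the alternative, the cause was not tested.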
